A study of Mus musculus with 48 samples.

Results

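The genes described here move calcium in skeletal muscle fibres: 10 genes for the release of calcium from the sarcoplasmic reticulum, its binding in the store, its return to the store and its buffering in the cytosol. They are Cacna1s, Ryr1, Trdn, Casq1, Casq2, Atp2a1, Atp2a2, Sln, Pln and Pvalb. The members were taken by symbol from a list of genes with known roles, chosen with earlier results of these data known. All 10 were among the 14125 genes of the deposited count table, and all 10 were among the 12592 that passed the filter on low counts.

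RNA was measured by QuantSeq 3′ end sequencing in 48 libraries of mixed gastrocnemius, a hindlimb muscle of mostly fast fibres, from male C57BL6J mice whose age the labels do not give. Each library carried its own glucose and insulin values and was taken as 1 mouse. The EtOH_CON group drank the vehicle, 1% ethanol in water, and ate the control diet (n = 10). The EtOH_ATGLi group drank the vehicle and ate food (Teklad 8640) milled with atglistatin, an inhibitor of adipose triglyceride lipase, at 571 mg/kg (n = 10). The Cort_CON group drank 100 ug/ml corticosterone, the main glucocorticoid of mice, and ate the control diet (n = 14). The Cort_ATGLi group received the same corticosterone and the atglistatin food (n = 14). Treatment lasted 2 weeks. The sources used here do not say if the water with corticosterone contained ethanol. The labels call 9 of the 14 Cort_CON mice diabetic and the 5 others, like all mice of the other groups, nondiabetic.

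In a muscle fibre an action potential is sensed by the dihydropyridine receptor of the transverse tubule (Cacna1s), which opens the ryanodine receptor of the sarcoplasmic reticulum (Ryr1), and the calcium set free starts contraction. Triadin (Trdn) ties the release channel to calsequestrin (Casq1 in fast fibres, Casq2 in heart and slow fibres), which holds calcium inside the store. Relaxation follows when SERCA pumps (Atp2a1 in fast fibres, Atp2a2 in slow fibres and heart) return calcium to the store, a step restrained by the small membrane proteins sarcolipin (Sln) and phospholamban (Pln) and aided in fast fibres by the cytosolic buffer parvalbumin (Pvalb).

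The coding sequences of both pump inhibitors are shown because these short proteins act on the same pumps, and because Sln passed the test with corticosterone and Pln did not. They are from GENCODE M21 (GRCm38), 5′ to 3′, with the start and stop codons in capitals. The Sln sequence, 96 bases for 31 amino acids, lies in 1 exon at chr9:53853473-53853568 on the plus strand, and the Pln sequence, 159 bases for 52 amino acids, lies in 1 exon at chr10:53343864-53344022 on the plus strand.
Sln: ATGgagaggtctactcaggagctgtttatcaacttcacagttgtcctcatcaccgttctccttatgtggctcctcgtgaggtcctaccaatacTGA
Pln: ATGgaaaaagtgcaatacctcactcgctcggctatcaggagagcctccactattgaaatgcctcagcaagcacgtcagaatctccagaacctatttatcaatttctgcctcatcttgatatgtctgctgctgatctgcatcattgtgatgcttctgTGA

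The 250 bases before the transcription starts of both calsequestrin genes are shown because these transcripts moved in opposite directions. They are from RefSeq (GRCm38.p6), 5′ to 3′ along the gene: Casq1 at chr1:172219896-172220145 (minus strand) and Casq2 at chr3:102086165-102086414 (plus strand). Capitals mark the match to the consensus of the muscle factor MEF2, searched by name on both strands.
Casq1: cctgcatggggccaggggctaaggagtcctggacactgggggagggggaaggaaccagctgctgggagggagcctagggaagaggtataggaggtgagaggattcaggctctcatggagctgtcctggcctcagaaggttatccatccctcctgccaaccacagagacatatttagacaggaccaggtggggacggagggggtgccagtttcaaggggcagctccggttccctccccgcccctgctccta
Casq2: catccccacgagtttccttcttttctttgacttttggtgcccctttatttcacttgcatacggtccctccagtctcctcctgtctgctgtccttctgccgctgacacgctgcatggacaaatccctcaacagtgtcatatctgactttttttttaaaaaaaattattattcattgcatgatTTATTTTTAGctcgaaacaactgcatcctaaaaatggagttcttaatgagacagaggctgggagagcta

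The Casq2 window held 1 MEF2 match, 69 bases before the start, and the Casq1 window held none. That motif was in 2.92% of the 32851 windows of this length. Of the 7 members with a RefSeq window, 1 of the 2 Pvalb windows was the other with a MEF2 match. The letters AGAACA, the core of the glucocorticoid receptor element, were found on either strand in the Pln window alone among those of the 7 members, against 16.1% of all windows. The E-box letters CANNTG were in 66.2% of all windows and in both calsequestrin windows, 2 matches in each. Sln, Trdn and Atp2a2 were not in the promoter table. These matches are descriptions of letters, not of binding.

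Total counts ran from 10453888 to 24034481 per library, so that 1 CPM (a count scaled to the library's total with TMM factors) stood for 10.5 counts in the shallowest library and 24 in the deepest. A value per gene comes from transcript ends and was not scaled by length, so levels are compared between libraries and not between genes. The skeletal muscle markers Acta1 and Ckm were high throughout (lowest library 24250 and 6135 CPM). The sum of 6 skeletal muscle markers was not the same in all groups. It averaged 57080 CPM in EtOH_CON and 66420 CPM in Cort_CON, and 56910 CPM in EtOH_ATGLi and 60500 CPM in Cort_ATGLi. The defining cardiac genes Myh6 and Nppa, whose tissue shares Casq2, Atp2a2, Sln and Pln, reached at most 2.02 and 3.57 CPM. The 3 tested cardiac markers, which include Actc1 and Tnnt2, summed to 169.8 to 332 CPM in EtOH_CON and 101.2 to 308.5 CPM in EtOH_ATGLi. Their sum was 14.13 to 251.3 CPM in Cort_CON and 13.37 to 47.25 CPM in Cort_ATGLi. EtOH_CON p01 and Cort_ATGLi p41 resembled their own groups least (mean correlation with the group's other libraries 0.953 and 0.954, against up to 0.978), and Cort_CON p45 was among the next (0.963). In 47 libraries every deposited count was even, and in EtOH_ATGLi p13 49.6% were odd. In whole tissue, fewer fibres of a type and less RNA per fibre cannot be told apart.

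Corticosterone was followed by changes in most members on either diet, with opposite directions inside the store. On the control diet 6 of the 10 members rose (Cacna1s, Ryr1, Trdn, Casq2, Atp2a1 and Sln), 2 fell (Casq1 and Pvalb), and Atp2a2 and Pln did not pass the test (edgeR quasi-likelihood test, adjusted p threshold 0.05 over all genes). In that comparison 38.4% of the 12592 genes passed, 18.9% upward and 19.5% downward. On the atglistatin diet Trdn, Casq2, Atp2a1 and Sln rose, Casq1 and Pvalb fell, and the other 4 members did not pass, where 30% of all genes passed, 15% each way. The groups compared did not overlap for 1 member on the control diet (Atp2a1, higher) and 2 on the atglistatin diet (Sln, higher, and Casq1, lower). Over all genes this held for 4.71% on the control diet (2.37% higher and 2.33% lower) and for 3.45% on the atglistatin diet (1.84% higher and 1.61% lower). The median log2 fold change of the members was 0.36 on the control diet and 0.225 on the atglistatin diet, beside -0.001 and -0.002 over all genes. The members were chosen with earlier results of these data known, so these shares and medians describe the list and do not test it. Without EtOH_CON p01, Cort_ATGLi p41 and Cort_CON p45 together, 8 and 6 members again passed.

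Few members differed between the diets. In vehicle mice 0 of the 10 members passed (2, Atp2a1 and Cacna1s, had an unadjusted p under 0.05, and limma voom and DESeq2 also called 0), where 0.0238% of all genes passed. In corticosterone mice 1 member, Casq1, passed and was lower, where 1.6% of all genes passed, 0.667% upward and 0.929% downward. The interaction, which asks whether the corticosterone response differed between diets, called 0 members (2 with an unadjusted p under 0.05, and 0 by limma voom or DESeq2), where 0.0397% of all genes passed. Diabetic against nondiabetic Cort_CON mice gave 0 members and 0% of 13084 genes (0 members with an unadjusted p under 0.05, and 0 by limma voom or DESeq2).

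**Figure D1:**
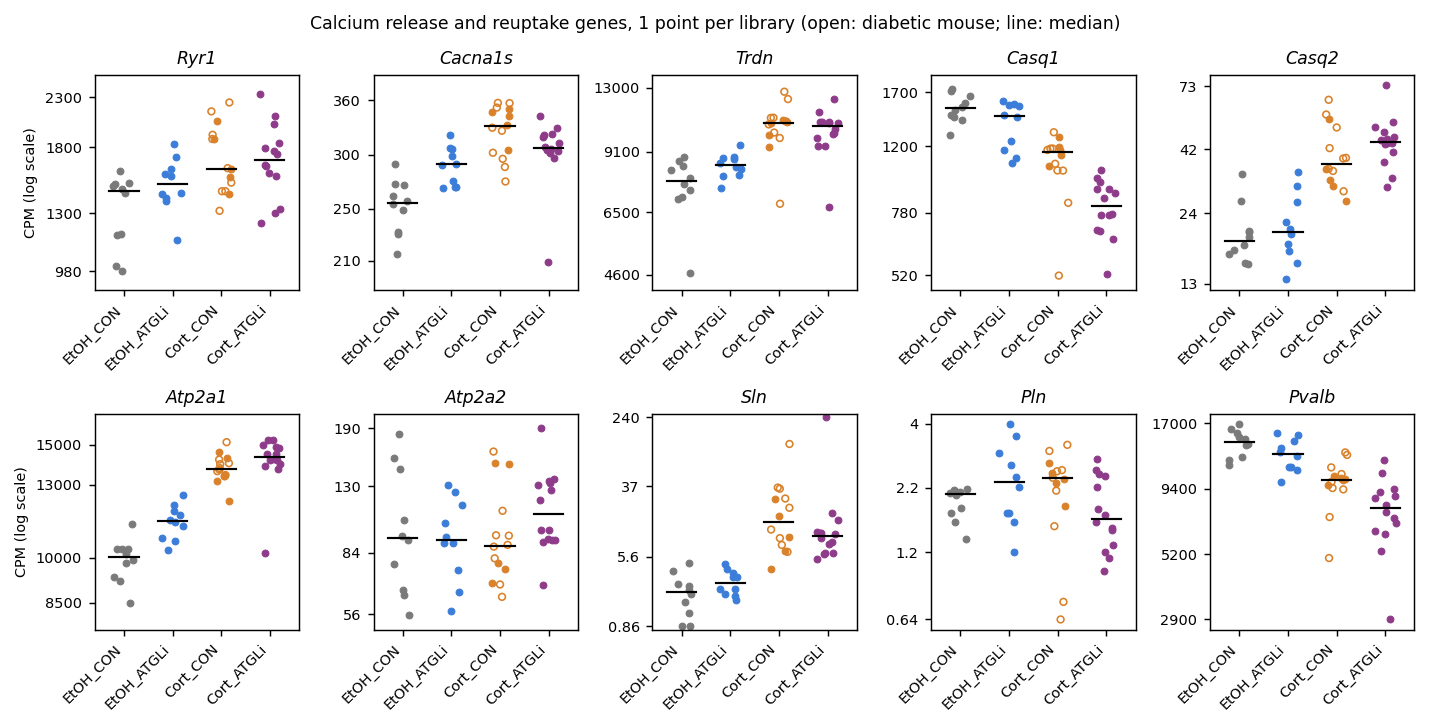
Level of each member gene (CPM, log axis) in each of the 48 libraries by group, with the group median as a line and open points for mice labelled diabetic. Casq1 and Pvalb sit lower and Casq2, Atp2a1, Trdn and Sln higher in the corticosterone groups, while Atp2a2 and Pln overlap in all groups.

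The voltage sensor and the release channel rose moderately with corticosterone on the control diet. Cacna1s (chr1:136052750-136119822, plus strand) was at 215, 255 and 291 CPM in the lowest, median and highest EtOH_CON library and at 274, 330 and 357 CPM in Cort_CON. Of the 14 Cort_CON libraries 12 were above the highest EtOH_CON library, and the difference was 0.36 on the log2 scale (SE 0.06, adjusted p = 3.84e-06). In EtOH_ATGLi it was at 269, 290 and 321 CPM and in Cort_ATGLi at 209, 307 and 341 CPM. These groups overlapped, and the log2 fold change of 0.08 (95% interval -0.04 to 0.20) did not pass (adjusted p = 0.366). The difference between both responses was -0.28 (SE 0.09), with an unadjusted p of 0.00197 that did not hold over all genes (adjusted p = 0.505). Vehicle mice on atglistatin were above the EtOH_CON mean in 10 of 10 libraries (log2 fold change 0.19, SE 0.07, adjusted p = 0.447).

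Ryr1 (chr7:29003344-29125179, minus strand) was at 981, 1453 and 1605 CPM in EtOH_CON and at 1317, 1621 and 2242 CPM in Cort_CON. The groups overlapped, but 13 of 14 Cort_CON libraries lay above the EtOH_CON mean, and the gene was higher by 0.36 on the log2 scale (SE 0.10, adjusted p = 0.00245). In EtOH_ATGLi it was at 1141, 1500 and 1826 CPM and in Cort_ATGLi at 1239, 1693 and 2338 CPM, where the log2 fold change of 0.18 (interval -0.02 to 0.37) did not pass (adjusted p = 0.175). The interaction was -0.19 (SE 0.14, adjusted p = 0.996). Between the diets within corticosterone mice the difference was -0.01 (interval -0.185 to 0.17).

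Triadin rose on both diets. Trdn (chr10:33080554-33476709, plus strand) was at 4641, 7751 and 8823 CPM in EtOH_CON and at 6823, 10690 and 12710 CPM in Cort_CON. All Cort_CON libraries except p45 were above the highest EtOH_CON library, and Trdn was higher by 0.47 on the log2 scale (SE 0.085, adjusted p = 1.09e-05). With atglistatin food it was at 7449, 8473 and 9480 CPM with vehicle and at 6699, 10500 and 12190 CPM with corticosterone, higher by 0.27 on the log2 scale (SE 0.085, adjusted p = 0.011). There 11 of 14 Cort_ATGLi libraries were above every EtOH_ATGLi library and 1, p41, was below all of them. The lowest library of 3 groups was thus 1 of those that stood apart: p01, p45 and p41.

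The calsequestrins moved against each other. Casq1 (chr1:172209894-172219868, minus strand) was at 1286, 1532 and 1732 CPM in EtOH_CON and at 519, 1152 and 1312 CPM in Cort_CON. In 13 of 14 Cort_CON libraries it was below the lowest EtOH_CON library, and the log2 difference was -0.51 (SE 0.10, adjusted p = 3.85e-05). On the atglistatin diet it was at 1078, 1458 and 1602 CPM with vehicle and at 525, 816 and 1031 CPM with corticosterone. These groups did not overlap, with a log2 difference of -0.76 (SE 0.10, adjusted p = 1.51e-08).

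Casq1 was also the member that passed between diets within corticosterone mice. Mean levels were 1081 ± 201 CPM (SD, n = 14) in Cort_CON and 815 ± 141 CPM (SD, n = 14) in Cort_ATGLi, and each Cort_ATGLi library was below the Cort_CON mean. The log2 difference was -0.41 (SE 0.09, adjusted p = 0.01), and the ranges of both groups overlapped. Fitted with both of these groups alone, the value was -0.40 with an adjusted p of 0.055, and over leaving out each library in turn the adjusted p ran from 0.000214 to 0.0231. In vehicle mice the diet difference was -0.155 (interval -0.37 to 0.06, adjusted p = 0.859). The interaction of -0.25 (SE 0.14, adjusted p = 0.939) did not pass, so a larger fall on atglistatin was not shown.

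Casq2 (chr3:102086415-102146514, plus strand) was at 15.5, 18.9 and 33.8 CPM in EtOH_CON and at 26.7, 37.1 and 64.8 CPM in Cort_CON. All 14 Cort_CON libraries were above the EtOH_CON mean and 10 were above its highest library, and the log2 difference was 0.998 (SE 0.15, adjusted p = 7.09e-07), or 2-fold. With atglistatin food it was at 13.5, 20.5 and 34.4 CPM with vehicle and at 30.3, 44.98 and 73.4 CPM with corticosterone, higher by 1.06 on the log2 scale (SE 0.15, adjusted p = 3.71e-07). There 12 of 14 were above every EtOH_ATGLi library. The diets did not differ by the test in corticosterone mice (0.16, interval -0.11 to 0.425) or in vehicle mice (0.10, interval -0.22 to 0.42).

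As a ratio within each library, Casq2 counts per 100 Casq1 counts averaged 1.35 ± 0.421 (SD, n = 10) in EtOH_CON. The mean was 4.23 ± 2.70 (SD, n = 14) in Cort_CON, where 12 of 14 Cort_CON libraries were above the highest EtOH_CON library. On atglistatin food the mean ratio was 1.67 ± 0.727 (SD, n = 10) with vehicle, against 5.80 ± 1.74 (SD, n = 14) with corticosterone, with no overlap. The highest ratio of either corticosterone group was in p45 (12.5) and p41 (9.74). Trdn counts per 100 Casq1 counts ran from 271 to 557 in EtOH_CON and from 789 to 1323 in Cort_CON, and from 510 to 754 in EtOH_ATGLi and 1083 to 1534 in Cort_ATGLi. For triadin against calsequestrin 1 neither corticosterone group overlapped its vehicle group. These are ratios of 3′ counts, not of molecules, and they join genes already tested above.

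**Figure D2:**
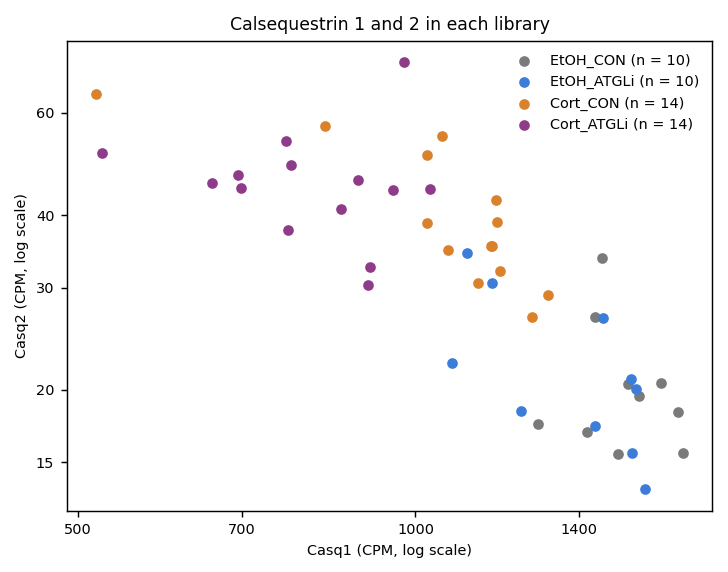
Casq2 against Casq1 (CPM, both axes logarithmic), 1 point per library, coloured by group. Corticosterone libraries lie toward lower Casq1 and higher Casq2, and the Cort_CON library with 519 CPM of Casq1 and the Cort_ATGLi library with 525 CPM are p45 and p41.

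Of the pumps, the fast isoform rose and the slow isoform did not pass. Atp2a1 (chr7:126445858-126463108, minus strand) was at 8487, 10020 and 11300 CPM in EtOH_CON and at 12270, 13760 and 15140 CPM in Cort_CON. These groups did not overlap, with a log2 difference of 0.48 (SE 0.06, adjusted p = 4.05e-09). On the atglistatin diet it was at 10260, 11410 and 12540 CPM with vehicle and at 10180, 14370 and 15240 CPM with corticosterone, higher by 0.32 on the log2 scale (SE 0.06, adjusted p = 3.3e-05). There 13 of 14 were above every EtOH_ATGLi library and the other, p41, was below all of them. Vehicle mice on atglistatin were above the EtOH_CON mean in 10 of 10 libraries, but the log2 difference of 0.20 (SE 0.065) had an adjusted p of 0.366. The 3′ end of Atp2a1 overlaps Rabep2 on the other strand, and without the strand setting of the counting their reads cannot be told apart there.

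Atp2a2 (chr5:122453513-122502225, minus strand) was at 55.7, 92.5 and 183 CPM in EtOH_CON and at 62.8, 87.8 and 163 CPM in Cort_CON. The groups covered much the same range, and the log2 fold change was -0.08 (interval -0.44 to 0.285, adjusted p = 0.771). It was at 57.2, 91.3 and 131 CPM in EtOH_ATGLi and at 68.0, 108 and 190 CPM in Cort_ATGLi, a log2 fold change of 0.275 (interval -0.09 to 0.64, adjusted p = 0.284). Its spread inside a group was wide, with a coefficient of variation of 41.9% in EtOH_CON against 7.76% for Atp2a1, and it tracked slow fibre markers from library to library, as described below. Between the diets in corticosterone mice the difference was 0.22 (interval -0.115 to 0.55, adjusted p = 0.678).

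Sarcolipin had the largest fold change of the 10 members on both diets. Sln (chr9:53850164-53854560, plus strand) was at 0.859, 2.18 and 4.74 CPM in EtOH_CON, from 14 to 80 counts, and at 4.003, 14.2 and 116 CPM in Cort_CON, from 56 to 1848 counts. All Cort_CON libraries except p33, the lowest, were above the highest EtOH_CON library, with a log2 difference of 3.385 (SE 0.68, adjusted p = 8.12e-05), or 10.5-fold. With atglistatin food it was at 1.74, 2.76 and 4.56 CPM with vehicle and at 5.19, 9.82 and 238 CPM with corticosterone, with no overlap. The log2 difference there was 3.17 (SE 0.66, adjusted p = 1.97e-04), or 9.02-fold.

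The size of the Sln response rested on single libraries, though not its direction. In Cort_ATGLi the highest library was p41 at 238 CPM and the next was at 18.3 CPM, and in Cort_CON the highest was p45 at 116 CPM and the next was at 35.9 CPM. Without p41 the log2 fold change on the atglistatin diet was 1.715 (3.28-fold, adjusted p = 0.00176), and without p45 that on the control diet was 2.85 (7.22-fold, adjusted p = 2.86e-04). Without p41, Sln was lower in Cort_ATGLi than in Cort_CON, with a log2 difference of -1.32 (adjusted p = 0.0316), where with it the difference was 0.145 (interval -0.83 to 1.12, adjusted p = 0.952). Without p01, p41 and p45 together that difference was -0.79 (adjusted p = 0.124), so the diet comparison of Sln changed sign and call with the libraries included. In the same libraries other members were low: Pvalb, Casq1, Trdn and Cacna1s were each lowest of their group in p41 (2899, 525, 6699 and 209 CPM) and in p45 (5030, 519, 6823 and 274 CPM). The summed fast fibre markers were also lowest of their group there, 80170 CPM in p41 and 120400 CPM in p45. In p41 the summed leukocyte and adipocyte markers were the highest of the group (57.1 and 321 CPM). The insulin value of p41 was the lowest of Cort_ATGLi and lay within the range of the vehicle mice. The part of these differences in the Sln values was not tested.

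Diabetic Cort_CON mice had 6.35, 20.8 and 116 CPM of Sln in the lowest, median and highest library (n = 9), and nondiabetic mice had 4.003, 9.42 and 26.7 CPM (n = 5). The ranges overlapped, and the log2 fold change of 1.23 (interval -0.27 to 2.74) did not pass (adjusted p = 0.999). It was 0.58 without p45. Against vehicle, each of the 8 members called on the control diet was called in the same direction whether the 9 diabetic or the 5 nondiabetic Cort_CON mice were used alone. The split follows the labels. Cort_CON p36, labelled nondiabetic, had a fed glucose value nearer to those of the diabetic mice than to those of the other nondiabetic Cort_CON mice.

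Phospholamban RNA was scarce and did not pass in any comparison. Pln (chr10:53337667-53345987, plus strand) was at 1.36, 2.07 and 2.18 CPM in EtOH_CON and at 0.640, 2.40 and 3.28 CPM in Cort_CON, from 10 to 48 counts in the latter. The log2 fold change was 0.18 (interval -0.22 to 0.59, adjusted p = 0.514). It was at 1.21, 2.32 and 3.99 CPM in EtOH_ATGLi and at 1.01, 1.64 and 2.88 CPM in Cort_ATGLi, a log2 fold change of -0.435 (interval -0.83 to -0.04) with an unadjusted p of 0.0371 and an adjusted p of 0.101. The interaction of -0.62 (SE 0.29) had an unadjusted p of 0.0374 and an adjusted p of 0.891. Pln lies inside Cep85l, which is on the other strand and was counted too, so at this depth and without the strand setting its values are uncertain.

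Parvalbumin fell with corticosterone. Pvalb (chr15:78191114-78206400, minus strand) was at 11670, 14390 and 16810 CPM in EtOH_CON and at 5030, 10200 and 13050 CPM in Cort_CON. In 12 of 14 Cort_CON libraries it was below every EtOH_CON library, and the log2 difference was -0.51 (SE 0.13, adjusted p = 0.00137). On the atglistatin diet it was at 9971, 12810 and 15570 CPM with vehicle and at 2899, 7885 and 12240 CPM with corticosterone, with a log2 difference of -0.71 (SE 0.13, adjusted p = 2.06e-05), and again 12 of 14 were below every vehicle library. Between diets within corticosterone mice the value was -0.35 (SE 0.12), lower in 12 of 14 Cort_ATGLi libraries than the Cort_CON mean, with an adjusted p of 0.139. Without p45 it was -0.40 with an adjusted p of 0.0344.

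**Figure D3:**
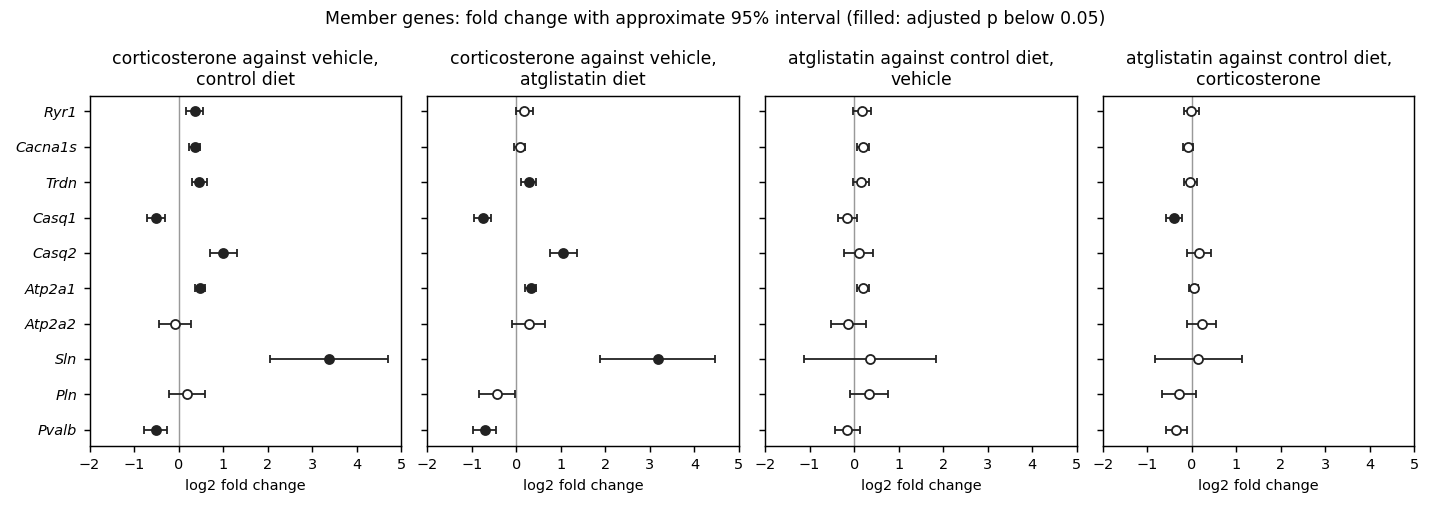
Log2 fold change of each member gene in 4 comparisons, with bars for the 95% interval and filled points where the adjusted p was below 0.05. Sln reached 3.385 and 3.17 with corticosterone, Casq1 and Pvalb were below 0 in both corticosterone comparisons, and Casq1 was the filled point of the atglistatin comparisons, at -0.41.

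Within groups, some members varied together from mouse to mouse. After each group's mean was taken away, Pearson's r of log2 CPM over the 48 libraries was 0.87 for Casq1 with Pvalb (Spearman's rho = 0.83). It was 0.74 for Atp2a1 with Cacna1s (rho = 0.56) and -0.50 for Casq1 with Casq2 (rho = -0.50). Sln went against Cacna1s (r = -0.57, Spearman's rho = -0.27), Casq1 (r = -0.54, rho = -0.25) and Pvalb (r = -0.53, rho = -0.09). The rank correlations of Sln were much weaker than r, and p41 and p45 are its extreme libraries. That of Atp2a1 with Cacna1s was weaker too, and both genes were lowest of their group in p41. These are descriptions over libraries that share their scaling, and no p is attached.

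The genes most like each member were taken from the 7618 genes that averaged 5 CPM or more. Here too, r is over the 48 libraries after each group's mean was taken away. These genes are a description of likeness, with no test. Those of Atp2a2 were the slow fibre genes Tnni1 (r = 0.89), Tpm3 (0.89) and Myh7 (0.87), which encode troponin I, tropomyosin and the myosin heavy chain of slow fibres. Those of Ryr1 were Neb (0.83), for the giant thin-filament protein nebulin, Plec (0.82), for the linker plectin, and Huwe1 (0.80). Pvalb was nearest to Aamdc (0.92), Tcea3 (0.91) and Ndufb2 (0.89), and Casq1 to Pgam2 (0.89), the muscle phosphoglycerate mutase, Aamdc (0.88) and Nrep (0.88). Casq2 was nearest to Smtnl1 (0.72), Ppp1r1a (0.70) and Idh2 (0.67), and Trdn was close to Ptp4a2 (0.83) and Nexn (0.83). Atp2a1 and Cacna1s were among each other's 3 nearest genes (0.74), beside Eepd1 (0.70) and Thra (0.69) for Atp2a1 and Gpd1 (0.74) and Asb14 (0.73) for Cacna1s. Sln was nearest to Eef1a1 (0.74), Rhoc (0.73) and Mustn1 (0.73), and Pln to Gm13341 (0.67), Idh3g (0.65) and Ndufs7 (0.65). No rank correlation was taken with these genes, and the weight of p41 and p45 in the Sln values was not tested.

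Fibre type markers varied with some members from library to library. The 11 slow fibre markers summed to 896 to 2735 CPM in EtOH_CON and 1464 to 3193 CPM in Cort_CON, and to 893 to 2200 CPM in EtOH_ATGLi and 1518 to 3696 CPM in Cort_ATGLi. With corticosterone 4 of these 11 markers rose and 0 fell on the control diet (36.4% called against 38.4% of all genes, median log2 fold change 0.26). On atglistatin food 5 rose and 0 fell (45.5% against 30%, median 0.66). Myl2 rose by 0.895 (SE 0.21) and Tnni1 by 0.68 (SE 0.25) on the control diet, while Myh7 (0.14, SE 0.27) and Tnnt1 (0.415, SE 0.24) did not pass there. The Tnni1 call was lost with total counts only (0.56, adjusted p = 0.0598) and with nondiabetic mice only (0.655, adjusted p = 0.142).

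Of the 11 fast fibre markers 4 rose and 2 fell on the control diet (54.5% called against 38.4% of all genes). On the atglistatin diet 4 rose and 3 fell (63.6% against 30%). The falls on the control diet were those of Myl1 (-1.14, SE 0.14), a fast myosin light chain, and Tpm1 (-0.37, SE 0.11). Myh1 rose by 0.785 (SE 0.15). Myh2 rose by 0.38 (SE 0.15), but its call was lost with upper quartile scaling (0.33, adjusted p = 0.0717), total counts only (0.27, adjusted p = 0.17), only the groups compared (adjusted p = 0.0506) and either disease state alone (adjusted p = 0.0529 and 0.152). Myh4, the myosin of the fastest fibres, did not pass (0.05, SE 0.09). Summed fast fibre markers ran from 111800 to 161100 CPM in EtOH_CON, 120400 to 166400 CPM in Cort_CON, 125600 to 154800 CPM in EtOH_ATGLi and 80170 to 152100 CPM in Cort_ATGLi. Within groups the slow marker sum had r = 0.84 with Atp2a2 and 0.56 with Casq2, and the fast marker sum had r = 0.82 with Trdn and 0.74 with Pvalb. Of the 6 skeletal muscle markers 3 rose and 0 fell on the control diet (50% called against 38.4% of all genes, median 0.20). On the atglistatin diet 2 rose and 0 fell (33.3% against 30%, median 0.09). The Acta1 call on the control diet (0.19) was lost with upper quartile scaling (0.14, adjusted p = 0.113) and total counts only (0.07, adjusted p = 0.274). The part of the fibre type and skeletal muscle markers in the members' changes was not tested.

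Smooth muscle, which also holds Pln, Casq2 and Atp2a2, had 4 of 8 markers lower on the control diet (50% called against 38.4% of all genes) and 2 of 8 on the atglistatin diet (25% against 30%), with 0 rising. Acta2 fell by 0.45 on the log2 scale (SE 0.12) on the control diet and Myh11 did not pass (0.05, SE 0.15). The sum of the 8 markers was 305 to 424 CPM in EtOH_CON, 228 to 388 CPM in Cort_CON, 281 to 399 CPM in EtOH_ATGLi and 245 to 321 CPM in Cort_ATGLi. Of the 3 tested cardiac markers 1 rose and 1 fell on each diet. Tnnt2, cardiac troponin T, rose by 0.84 (SE 0.27) and 1.33 (SE 0.28), and Actc1, which skeletal muscle also expresses, fell by 2.01 (SE 0.42) and 3.10 (SE 0.435) on the log2 scale. With nondiabetic mice only, both calls on the control diet were lost (Tnnt2 0.60, adjusted p = 0.236, and Actc1 -1.19, adjusted p = 0.106). On the control diet 6 of 7 fibro-adipogenic genes fell (85.7%), and 5 of 6 endothelial and 5 of 6 leukocyte genes (83.3% each), against 19.5% of all genes. On the atglistatin diet 7 of 7 (100%), 5 of 6 and 5 of 6 (83.3% each) fell, against 15% of all genes. There the Cdh5, Kdr and Tek calls were lost without EtOH_ATGLi p13 (adjusted p = 0.0611, 0.107 and 0.0583). The Adgre1 call was lost with only the groups compared (adjusted p = 0.0504). The part of these lists in the members' CPM was not tested.

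**Figure D4:**
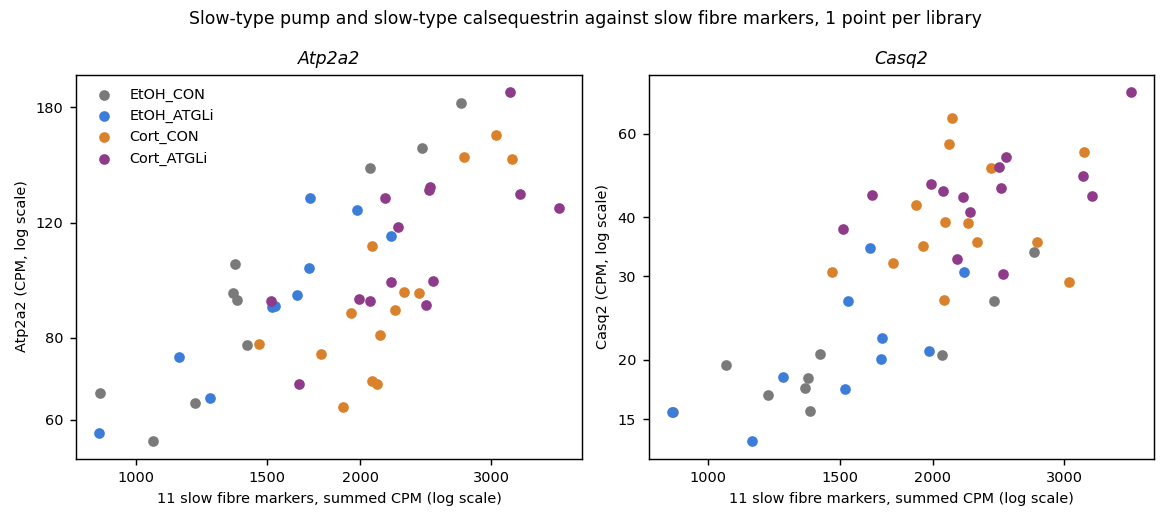
Atp2a2 (left) and Casq2 (right) against the summed CPM of 11 slow fibre markers, both axes logarithmic, 1 point per library. Atp2a2 rises with the marker sum (r 0.84 over the 48 libraries after group means were taken away), and most corticosterone libraries lie above the vehicle libraries in Casq2.

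Beyond the members, 64 other calcium handling genes were listed by role, with earlier results of these data known. Of these 63 were in the table and 60 were tested (Strit1 was not analysed here). With corticosterone 17 rose and 14 fell on the control diet (51.7% against 38.4% of all genes), and 12 rose and 14 fell on the atglistatin diet (43.3% against 30%). The split between rises and falls depends on the scaling: with total counts alone it was 9 higher and 23 lower on the control diet and 8 and 14 on the atglistatin diet, and with upper quartile scaling 12 and 16, and 9 and 14. Without p01, p41 and p45 it was 20 and 14, and 14 and 14. Atglistatin in vehicle mice called 0 of the 60, where 0.0238% of all genes passed.

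Among release genes the voltage sensor's gamma subunit Cacng1 rose on both diets (0.53, SE 0.09, and 0.50, SE 0.09), and the beta subunit Cacnb1 rose on the control diet (0.16, SE 0.06). The Cacnb1 call was lost with upper quartile scaling (0.11, adjusted p = 0.139), with total counts only (0.04, adjusted p = 0.593) and with either disease state alone (adjusted p = 0.0696 and 0.0953). Stac3, the adaptor that holds sensor and release channel together, fell on the atglistatin diet (-0.36, SE 0.11) and did not pass on the control diet (-0.20). Of the 8 triad genes 75% were called on the control diet and 50% on the atglistatin diet, against 38.4% and 30% of all genes. Of these triad genes 5 rose and 1 fell on the control diet and 2 rose and 2 fell on the atglistatin diet. These counts depend on the scaling: on the control diet they were 3 and 1 with upper quartile scaling and 1 and 2 with total counts only, where Asph, Speg, Mtm1 and Ahnak lost their calls. On the atglistatin diet they were 1 and 2 under both scalings. Jsrp1, a junctional protein that binds the voltage sensor, rose by 0.38 (SE 0.08) and 0.32 (SE 0.08), and Ahnak was higher on the control diet (0.25, SE 0.10, against 0.15 with total counts only, adjusted p = 0.387, and 0.20 with upper quartile scaling, adjusted p = 0.107). The Ahnak call was also lost with nondiabetic Cort_CON mice only (adjusted p = 0.279) and without EtOH_CON p01, Cort_ATGLi p41 and Cort_CON p45 (0.196, adjusted p = 0.0637). Jph2, which bridges tubule and reticulum, fell on the atglistatin diet (-0.32, SE 0.10).

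Of the 9 tested regulators of release, 2 rose and 3 fell on the control diet, and 1 rose and 1 fell on the atglistatin diet. The shares called were 55.6% and 22.2%, against 38.4% and 30% of all genes. Itpr1, the type 1 receptor for inositol trisphosphate and a release channel of its own, fell without overlap on the control diet (log2 difference -1.18, SE 0.135, adjusted p = 3.88e-10). EtOH_CON libraries averaged 39.3 ± 4.22 CPM (SD, n = 10), and Cort_CON libraries 17.3 ± 4.02 CPM (SD, n = 14). It fell by 1.29 on the log2 scale (SE 0.14) on the atglistatin diet, and in corticosterone mice it was lower with atglistatin than with the control diet (-0.51, SE 0.13, adjusted p = 0.0247). The scaffold gene Homer2 rose by 0.56 (SE 0.11) and 0.42 (SE 0.11).

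Of the 8 tested genes for other pumps, regulators and lumen proteins 5 rose on each diet. On the control diet 0 fell, and on the atglistatin diet 1 fell. The shares called were 62.5% and 75%, against 38.4% and 30% of all genes. Tmem38b, a potassium channel of the reticulum that balances charge during calcium release, rose without overlap on the control diet (log2 difference 1.28, SE 0.10, adjusted p = 2.05e-16) and on the atglistatin diet (1.215, SE 0.10). EtOH_CON libraries averaged 26.8 ± 2.60 CPM (SD, n = 10), against 65.01 ± 9.72 CPM (SD, n = 14) in Cort_CON. The lumen protein calreticulin, Calr, rose by 0.48 (SE 0.09) and 0.50 (SE 0.09).

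Of the 7 tested genes for entry and exit across the plasma membrane 1 rose and 3 fell on the control diet. On the atglistatin diet 0 rose and 2 fell. The shares called were 57.1% and 28.6%, against 38.4% and 30% of all genes. Slc8a3, a sodium-calcium exchanger, fell without overlap on the control diet (log2 difference -1.62, SE 0.14, adjusted p = 2.07e-13) and on the atglistatin diet (-1.285, SE 0.14). Its mean was 54.9 ± 6.45 CPM (SD, n = 10) in EtOH_CON, against 17.8 ± 4.80 CPM (SD, n = 14) in Cort_CON. In corticosterone mice it was higher with atglistatin, at 26.2 ± 8.21 CPM (SD, n = 14), by 0.56 on the log2 scale (SE 0.13, adjusted p = 0.0166). The pump gene Atp2b4 fell on the control diet (-0.57, SE 0.15) and the store-operated channel gene Orai1 fell on both (-0.45 and -0.37, SE 0.08 each).

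Mitochondrial uptake genes had 3 of 9 lower on the control diet (33.3% called, against 38.4% of all genes) and 4 of 9 on the atglistatin diet (44.4% against 30%), with 0 rising, among them Micu3 (-0.36, SE 0.08, and -0.25, SE 0.08) and, on the atglistatin diet, Vdac1 (-0.20, SE 0.08), whose call was lost without EtOH_ATGLi p13 (adjusted p = 0.0712) and with only the groups compared (adjusted p = 0.0613). Of the 15 sensors and calcineurin genes 2 rose and 4 fell on the control diet and 3 rose and 3 fell on the atglistatin diet. On each diet 40% were called, against 38.4% and 30% of all genes. The calmodulin gene Calm2 fell by 0.80 and 0.72 on the log2 scale (SE 0.11 each), and Myoz1, which binds calcineurin at the Z-disc of fast fibres, rose by 0.63 (SE 0.095) and 0.45 (SE 0.09). Between the diets in corticosterone mice 6.67% of the 60 genes were called, against 1.6% of all genes (0.667% higher and 0.929% lower). Of the 60, 2 were higher with atglistatin (Slc8a3 and Nfatc2, 0.49, SE 0.14) and 2 were lower (Itpr1 and Camk2b, -0.24, SE 0.06). None of these 4 passed when both groups were fitted alone.

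**Figure D5:**
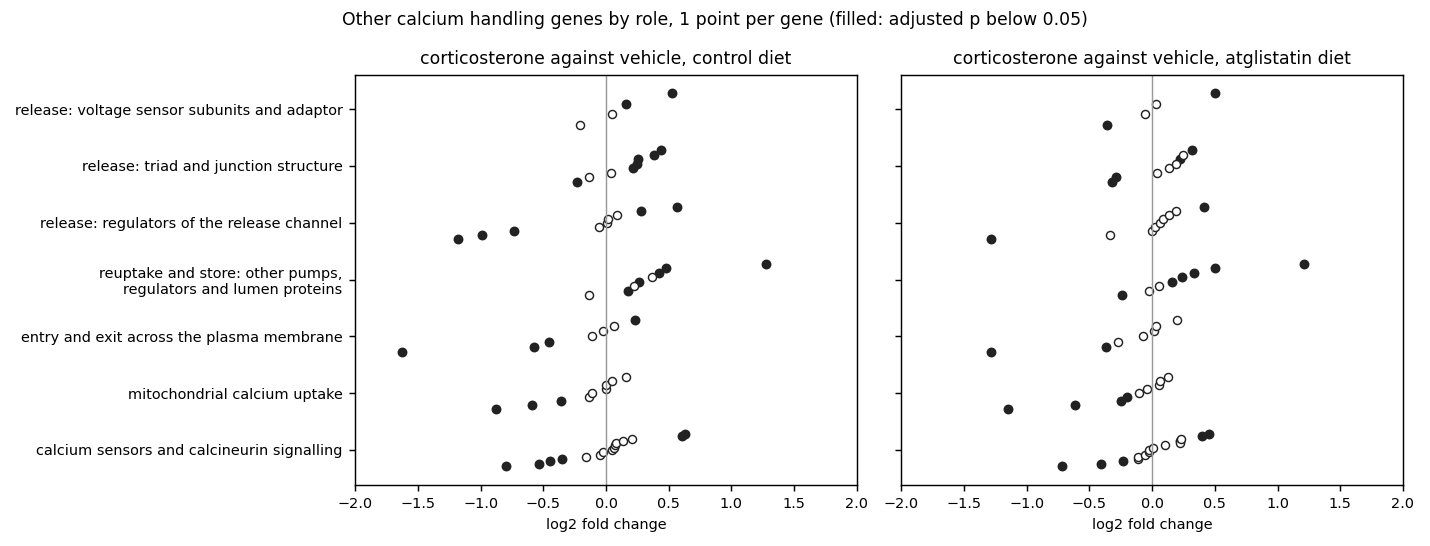
Log2 fold change with corticosterone of the 60 other tested calcium handling genes, by role, on the control diet (left) and the atglistatin diet (right), 1 point per gene, filled where the adjusted p was below 0.05. Tmem38b lies furthest to the right (1.28 and 1.215) and Slc8a3 and Itpr1 lie below -1 in both panels.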

How the data were processed

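Gene counts of 48 QuantSeq libraries (50-base forward reads per the labels' protocols) were used as the authors deposited them, 14125 genes of whole-number raw counts. R 3.6.1, DESeq2 1.24.0 and GRCm38 are named in the submitters' processing notes. The sources used here do not name the aligner, counter, strand setting or annotation. Total counts ran from 10453888 to 24034481. Groups came from the labels. Where nothing says that samples are separate animals, p-values measure only the spread between these libraries.

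All 48 libraries entered 1 fit with edgeR 4.0.16 (R 4.3.3): TMM scaling (factors 0.853 to 1.22), filterByExpr (minimum count 10, minimum total 15; 1533 genes removed), a robust quasi-likelihood test and Benjamini-Hochberg adjustment over 12592 genes with a threshold of 0.05. The disease state comparison used a fit of 5 groups and 13084 genes. SE is the absolute log2 fold change divided by the square root of F. CPM uses TMM-scaled sizes, and log2 CPM for correlations has a prior count of 2. Alternatives were total count and upper quartile scaling, no filter, limma voom (limma 3.58.1), DESeq2 1.42.0, only the groups compared, replicate blocks and left-out libraries. On data simulated for the control diet comparison (12569 genes, 200 changed) 86% of 1.5-fold, 100% of 2-fold and 88% of 0.667-fold changes were recovered, with 5.08% false calls. The changed genes were drawn from those that averaged above 5 CPM, so these rates do not cover genes as scarce as Pln. The members and lists were chosen with earlier results of these data known. All members are named. Of each other calcium list, the 2 called genes of largest change with a mean of at least 5 CPM are named, and, for each member, the 3 genes of highest correlation, of which 1 is not reported here. Orai1 on the control diet, Asph, Speg, Mtm1, Myl1, Tpm1, Tnnt2, Actc1, Acta1, Cdh5, Kdr, Tek and Adgre1 fall outside this rule and were added after their values were seen.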

Additional observations from a re-analysis of the deposited data

Results flagged for a closer look

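Of 40 sets of 4 to 10 libraries tested for a library far from the others (each member in EtOH_CON, EtOH_ATGLi, diabetic and nondiabetic Cort_CON), 5 held one. For independent sets of normally distributed values chance gives about 1 in 20. These sets share libraries, and some members vary together, so the 5 cannot be judged against that rate. Trdn in EtOH_CON p01 was at 4641 CPM, and the next lowest of the 10 libraries was at 7016 CPM. The other 4 were among the 9 diabetic Cort_CON mice. Trdn was lowest in p45 at 6823 CPM (next 9830 CPM) and Sln was highest in the same library at 116.2 CPM (next 35.88 CPM). Atp2a1 was highest in p27 at 15140 CPM (next 14220 CPM), and Atp2a2 was highest in p34 at 163.1 CPM (next 110.5 CPM). Groups of 14 were not tested in this way, so the 238 CPM of Sln in Cort_ATGLi p41 was not judged by it.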

How the results depend on the processing

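The 8 and 6 members called with corticosterone on the control and atglistatin diets were 8 and 6 under leaving out each library in turn (8 to 8 and 6 to 6) and under each other alternative on unpaired samples, and every called member kept its direction and call there. Leaving out a library gave 0 to 0 calls for atglistatin in vehicle mice, for the interaction and for disease state, and 1 to 2 for atglistatin in corticosterone mice (2 without Cort_ATGLi p41, where Sln passed, or Cort_CON p45, where Pvalb passed). For that comparison the count was 2 without EtOH_CON p01 and Cort_ATGLi p41 (Sln -1.301, Ryr1 0.030, Trdn 0.008), 2 without these and Cort_CON p45, an alternative chosen after seeing the data (Casq1 and Pvalb; Sln -0.787, Ryr1 0.037), and 0 with only the groups compared. Sln there was -0.389 by limma voom. With total counts only, Ryr1 was 0.065 and Trdn 0.034 in that comparison, the Sln interaction was 0.013, and diabetic against nondiabetic gave Ryr1 -0.003 and Trdn -0.008. Without the 3 libraries the last comparison gave Ryr1 -0.001 and Pvalb 0.040. With nondiabetic Cort_CON mice only, Atp2a2 was 0.014 on the control diet.

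Values that crossed 0 when single libraries were left out, none of them called in the full data, ran from -0.17 to 0.048 for Atp2a2 on the control diet. For atglistatin in corticosterone mice they ran from -1.316 to 0.669 (Sln), -0.049 to 0.031 (Ryr1) and -0.071 to 0.002 (Trdn). For the interaction they ran from -0.049 to 0.153 (Casq2) and -1.671 to 0.317 (Sln). For disease state they ran from 0.000 to 0.065 (Atp2a1), -0.292 to 0.013 (Atp2a2), -0.044 to 0.083 (Ryr1), -0.007 to 0.096 (Trdn) and -0.107 to 0.039 (Pvalb). The causes of these changes were not tested.

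The labels do not say that shared replicate numbers pair the samples. Same-numbered libraries correlated at -0.06 to 0.155 (p09 to p12) and at 0.041 and -0.022 (p13 and p14). EtOH_CON p09 was most like the EtOH_ATGLi library of its own number, and the other shared numbers did not match best. So few pairs cannot settle whether the samples were paired. With the replicate block, the 8 vehicle libraries p09 to p12 gave 1 called member (Ryr1, 0.448, adjusted p = 0.0464), with Casq1 0.051, Casq2 -0.119 and Sln -0.144. The block of 4 libraries p13 and p14 gave 5 called members on the atglistatin diet, with Atp2a1 at 0.345 (adjusted p = 0.086) and Atp2a2 at -0.294.

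Over all genes, atglistatin in vehicle mice called 3 genes, against 38 with only the groups compared or by DESeq2, 28 by limma voom, 24 with even counts halved, 21 with the block, 12 without the 3 libraries, 6 without EtOH_ATGLi p13, 5 without EtOH_CON p01 and Cort_ATGLi p41 and 1 with total counts only. Atglistatin in corticosterone mice called 201, against 78 with only the groups compared and 402 without the 3 libraries, and the interaction called 5, against 17 by DESeq2, 12 without the 3 libraries, 8 without p01 and p41 and 3 with total counts only. The block of 4 libraries called 1880 genes on the atglistatin diet, against 3781. With nondiabetic Cort_CON mice only, 2869 genes passed against 4838. Of all calls on the control diet 49.3% were higher, against 39.5% with upper quartile scaling and 29.2% with total counts only, which moved the median of all genes to -0.114. On the atglistatin diet these shares were 49.9%, 39.7% and 39%, and in corticosterone mice with atglistatin 41.8%, 43.8% and 76.9%. Depth limits Pln (10 to 58 deposited counts per library, and 79 in EtOH_ATGLi p13) and Sln in vehicle mice (14 to 80, and 83 in EtOH_ATGLi p13). The other 47 libraries hold even counts only, and what 1 count stands for there is not known, so the reads behind these values may be fewer. With the even counts halved, 8 members were called with corticosterone on the control diet and 6 on the atglistatin diet.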

Other observations

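The library with the highest Casq2 was Cort_ATGLi p24 (73.4 CPM, next in its group 53.6 CPM), and it also had the highest summed slow fibre markers of the 48 libraries (3696 CPM). The EtOH_CON library p11 had the highest Casq2 (33.8 CPM), Atp2a2 (183 CPM), Sln (4.74 CPM) and slow marker sum (2735 CPM) of its group. Sln counts per 100000 Atp2a1 counts had a median of 21.6 in EtOH_CON and 104 in Cort_CON, and 11 of 14 Cort_CON libraries were above the highest EtOH_CON library. The median was 23.9 in EtOH_ATGLi and 68.7 in Cort_ATGLi, where 13 of 14 were above the highest EtOH_ATGLi library. Atp2a2 counts per 100 Atp2a1 counts had medians of 0.881 in EtOH_CON, 0.769 in EtOH_ATGLi, 0.642 in Cort_CON and 0.851 in Cort_ATGLi, with overlap between all groups.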
